A study of Homo sapiens with 4 samples.

Results

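The elastic microfibril genes around MFAP5 are 9 genes, MFAP5 and its fibre partners MFAP2, FBN1, FBN2, LTBP1, LTBP3, EFEMP1, FBLN1 and ELN, taken by gene symbol from the 62696 genes listed for each library. MFAP5 was selected on its normalized counts in these libraries, where it was higher after knockdown, so its difference between the groups is described and not tested. The other 8 were chosen as genes of the same fibre. Total RNA of OVCAR3 cells, an established human line of high-grade serous ovarian carcinoma, was sequenced after depletion of ribosomal RNA. Knockdown cells (KD 1, 2 and 3, 3 libraries, called sets in the labels) carried a short hairpin RNA against the pseudogene transcript ANAPC1P2, and wild-type OVCAR3 cells (WT) gave 1 library. All were grown in RPMI medium with fetal bovine serum. The labels name no library with a non-targeting hairpin, so the loss of ANAPC1P2 and the carrying of a hairpin cannot be told apart. They do not say whether the 3 KD libraries came from separate cultures or hairpins. A p-value here therefore reflects no more than library-to-library spread, possibly technical in origin. That spread comes from the 3 KD libraries, and the lone WT library is assumed to vary like them.

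Elastic fibres of tissues such as artery, lung, skin and ligament have a core of cross-linked elastin laid down on a sheath of microfibrils. Microfibrils are long beaded polymers of fibrillin, to which the small glycoproteins MAGP-1 and MAGP-2 (encoded by MFAP2 and MFAP5), the latent TGF-beta binding proteins and several fibulins attach. The latent TGF-beta binding proteins hold TGF-beta in an inactive complex, and fibrillin also holds bone morphogenetic proteins. Microfibrils without elastin also occur, as in the ciliary zonule of the eye. These fibres are made mainly by fibroblasts and smooth muscle cells, and MAGP-2 also binds integrin alpha-v beta-3 and Notch receptors. Transcript levels say nothing of whether fibres are assembled.

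The KD libraries held 48443589, 56216398 and 42871815 reads assigned to genes, and the WT library held 27868718. Values below are the deposited normalized counts, in which 1 WT read is worth 1.11 and the limit of 3 reads for a gene without reads is 3.33. The targeted transcript was sparse. ANAPC1P2 (ENSG00000285793.1) was read 0, 11 and 8 times in KD 1, 2 and 3, against 14 times in WT, so the labels could be checked only weakly. The WT library stood apart by carrying transcripts of other tissues. The summed level of 6 erythroid markers was 1.55 to 3.79 in the KD libraries and 14707 in WT, and HBB, HBA1, HBA2 and AHSP were at 0 in every KD library. The summed level of 10 leukocyte markers was 85.6 to 115.6 in KD and 918.5 in WT. For 7 neural markers the sums were 61.4 to 86.3 in KD and 4372 in WT. All 10 markers of ovarian epithelium, among them EPCAM, PAX8 and KRT7, had reads in every library. Their summed level was 109478 to 122280 in KD and 558409 in WT, where MUC16 alone had 458890. Without MUC16 the sums were 82721, 86935 and 89526 in KD and 99519 in WT. Of the 10, 6 were higher in KD and 3 lower.

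The 250 bases before the RefSeq start are given for FBN1, FBN2 and LTBP3, chosen after their values were seen. These 3 were lower in every KD library, as were MFAP2 and LTBP1, whose windows are not printed. FBN1 was read less than the other genes named here, with 499 reads over the KD libraries. The printed sequences are from build GRCh38.p14, on the minus strand in each case. FBN1 lies at chr15:48644971-48645220, FBN2 at chr5:128538246-128538495 and the window before the second of the RefSeq starts of LTBP3 at chr11:65558229-65558478. Capitals mark the GC box GGGCGG on either strand (its complement reads CCGCCC) and the CCAAT box.
FBN1: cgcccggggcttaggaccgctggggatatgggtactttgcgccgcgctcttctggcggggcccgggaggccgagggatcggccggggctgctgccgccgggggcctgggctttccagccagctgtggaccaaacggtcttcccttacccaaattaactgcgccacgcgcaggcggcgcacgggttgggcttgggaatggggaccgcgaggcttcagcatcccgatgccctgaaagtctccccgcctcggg
FBN2: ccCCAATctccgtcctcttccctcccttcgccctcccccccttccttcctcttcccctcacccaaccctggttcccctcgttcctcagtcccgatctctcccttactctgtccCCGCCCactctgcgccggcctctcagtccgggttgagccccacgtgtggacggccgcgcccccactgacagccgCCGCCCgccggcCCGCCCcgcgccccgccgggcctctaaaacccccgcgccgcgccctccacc
LTBP3: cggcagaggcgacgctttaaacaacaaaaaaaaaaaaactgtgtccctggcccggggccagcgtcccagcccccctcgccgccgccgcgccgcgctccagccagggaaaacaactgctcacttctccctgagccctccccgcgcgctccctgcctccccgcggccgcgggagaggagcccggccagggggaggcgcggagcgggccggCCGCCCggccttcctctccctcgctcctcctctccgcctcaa

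All 3 windows lie inside the span of their own gene in GENCODE 29, and none overlaps an annotated exon of that gene. They were rich in G and C, at 69.6% for FBN1, 72.8% for FBN2 and 71.6% for LTBP3, against a median of 58.0% over 35116 RefSeq promoter windows of the same length. They held 25, 25 and 28 CpG dinucleotides, against a median of 11. A search of both strands found 3 GC boxes and 1 CCAAT box in the FBN2 window and 1 GC box in the LTBP3 window. A GC box occurred in 42.6% of all windows and a CCAAT box in 32.0%. The FBN1 window held no match to these or to the other motifs searched, which were TATAAA (10.7% of windows), the AP-1 motif TGANTCA (6.57%), the SMAD palindrome GTCTAGAC (0.182%) and the E-box CACCTG (17.5%). No matches of different motifs overlapped in these windows. Windows were found for 6 of the 9 members. MFAP5, EFEMP1 and ELN had no entry. Richness in G and C was not particular to the printed windows. The FBLN1 window, of a gene with KD values above WT, held 77.6% G and C, 27 CpG dinucleotides and a GC box. Before the first RefSeq start of MFAP2 these were 46.8% and 4, with the AP-1 motif at 2 places and the E-box CACCTG. Before its second start they were 76.4% and 28, with a GC box at 2 places. The 3 LTBP1 windows ran from 45.2% and 6 to 66.4% and 24, and the richest held the CCAAT box. The window before the first RefSeq start of LTBP3, not printed, held a GC box and the E-box CACCTG.

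MFAP5 encodes MAGP-2, a small microfibril glycoprotein that binds fibrillin. Its gene (ENSG00000197614.11) lies on the minus strand of chromosome 12 from 8637346 to 8662888, and its merged exons span 3876 bases. Its reads numbered 744 in KD 1, 371 in KD 2 and 286 in KD 3, and none was counted in WT. These are 705.2, 288.3 and 318.0 normalized counts in the KD libraries, with a mean of 437.1 ± 232.6 (SD, n = 3), against 0 in WT. Every KD library was far above the WT library. Against the limit of 3 reads in WT the KD mean was at least 131.2-fold higher, and the single KD libraries were at least 211.6-fold, 86.5-fold and 95.4-fold higher. Without KD 1 the mean was at least 91.0-fold higher. At the lowest rate of any KD library, 183.9 reads would have been counted in WT. MFAP5 was 1 of 27 protein-coding genes tested that had no WT read.

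**Figure D1:**
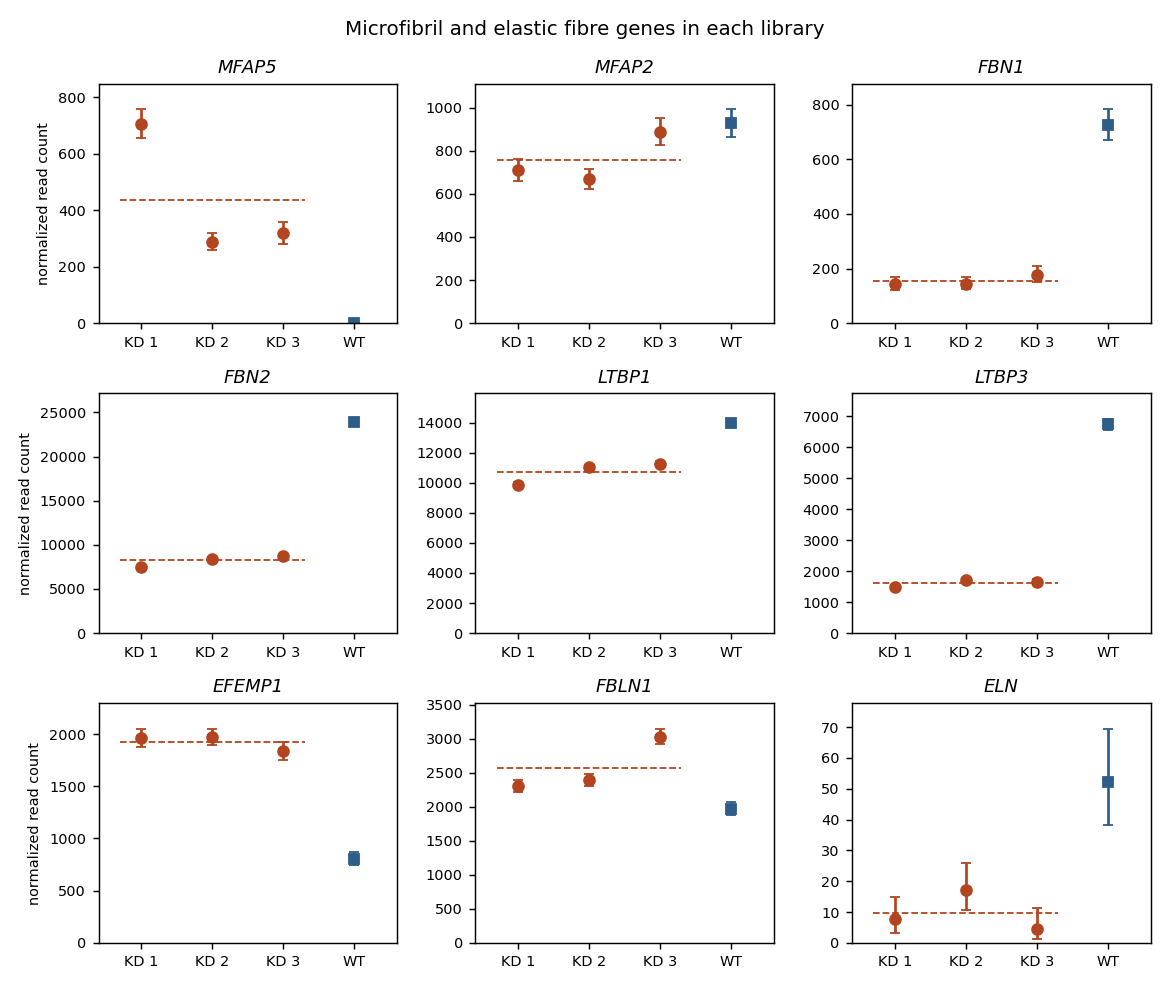
Normalized counts of the 9 members in KD 1, 2 and 3 and in WT, each gene on its own axis. Points are libraries, error bars are exact 95% Poisson intervals of the reads, and the dashed line is the KD mean. MFAP5 is at 705.2, 288.3 and 318.0 in KD and at 0 in WT, while FBN1, FBN2, LTBP3 and ELN lie lower in every KD library than in WT.

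The KD libraries did not share 1 level of MFAP5. The rate in KD 1 was 2.35 times the pooled rate of KD 2 and KD 3 (exact 95% interval of the ratio 2.11 to 2.61, counting error only), while KD 2 over KD 3 was 0.907 (0.775 to 1.06). KD 1 was thus high, and KD 2 and KD 3 were not distinguishable at this depth. The coefficient of variation over the KD libraries was 53.2% for MFAP5, against a median of 8.22% over 2952 protein-coding genes with a KD mean within 2-fold of it. By a chi-square test of the reads among the KD libraries, Benjamini-Hochberg adjusted over 23287 genes, MFAP5 differed with an adjusted p of 1.07e-57, which covers counting error only. In the same test 7 of the 9 members passed, beside 49.8% of all genes, and FBN1 (adjusted p = 0.155) and EFEMP1 (adjusted p = 0.0918) did not.

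MFAP2 encodes MAGP-1, the other MAGP, which binds fibrillin and active TGF-beta family factors. It had 710.9, 668.3 and 887.2 normalized counts in KD 1, 2 and 3, and 927.4 in WT. All KD values lay below WT, with KD 3 close to it. The log2 difference was -0.31 (SE 0.18), with a limma adjusted p of 0.161, so MFAP2 was not called. Without KD 3 the adjusted p was 0.0366, and it was 5.53e-03 to 0.893 over the 13 alternatives. Of the 2 MAGP genes, MFAP5 made up 42.7%, 24.5% and 21.2% of the level per kilobase in KD 1, 2 and 3, and was at 0 in WT. There 0 of 835 MAGP reads were of MFAP5, which allows a share of up to 0.359%. Per kilobase MFAP2 was above MFAP5 in every library. By reads the 2 genes were not distinguishable in KD 1, with 750 of MFAP2 and 744 of MFAP5.

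Among the 8 partners, 5 were called lower in KD, 1 was called higher and 2 were not called, at a limma adjusted p under 0.05. Over all 23344 genes tested, 36.3% were called lower and 31.4% higher, so 67.7% were called in either direction, and a called gene is the common case here. Among protein-coding genes 24.7% were called lower and 45.9% higher. The 5 lower calls include ELN, which reached the filter through WT alone. Without it, 4 of 7 partners were lower and 1 was higher. The median log2 difference was -0.97 over all 8 partners and -0.39 without ELN, against -0.28 over all genes tested and 0.28 over protein-coding genes. All 3 KD libraries lay below WT in 6 partners and above it in 2, so that no partner overlapped between the groups. This holds below WT for 52.2% and above WT for 40.0% of all genes. All 9 members passed the filter on the mean over the 4 libraries, MFAP5 through the KD libraries alone.

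The choice of scaling moves well-read genes together. Relative to the deposited values, TMM scaling changed the KD to WT ratio by 0.23 on the log2 scale, median-of-ratios scaling by 0.28 and equal library totals by -0.56, and genes near the pseudocount moved by other amounts. Of all calls, 46.4% were higher in KD with the deposited scaling, 56.0% with TMM, 57.1% with median-of-ratios and 27.0% with equal totals. Against the median of all genes tested, FBN1 stood at -1.94, FBN2 at -1.26, LTBP3 at -1.79 and ELN at -2.21 on the log2 scale, and EFEMP1 at 1.53. Under the other scalings these were -1.89 to -1.96, -1.21 to -1.29, -1.73 to -1.81, -2.13 to -2.25 and 1.51 to 1.58. MFAP2 was at -0.03 and LTBP1 at -0.11, which is close to the median of all genes tested, and FBLN1 was at 0.65. The median of protein-coding genes was higher, at 0.28 against -0.28 over all genes tested. With log2 differences of -0.31 and -0.39, MFAP2 and LTBP1 lay below that protein-coding median, and FBLN1, with 0.37, was near it.

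**Figure D2:**
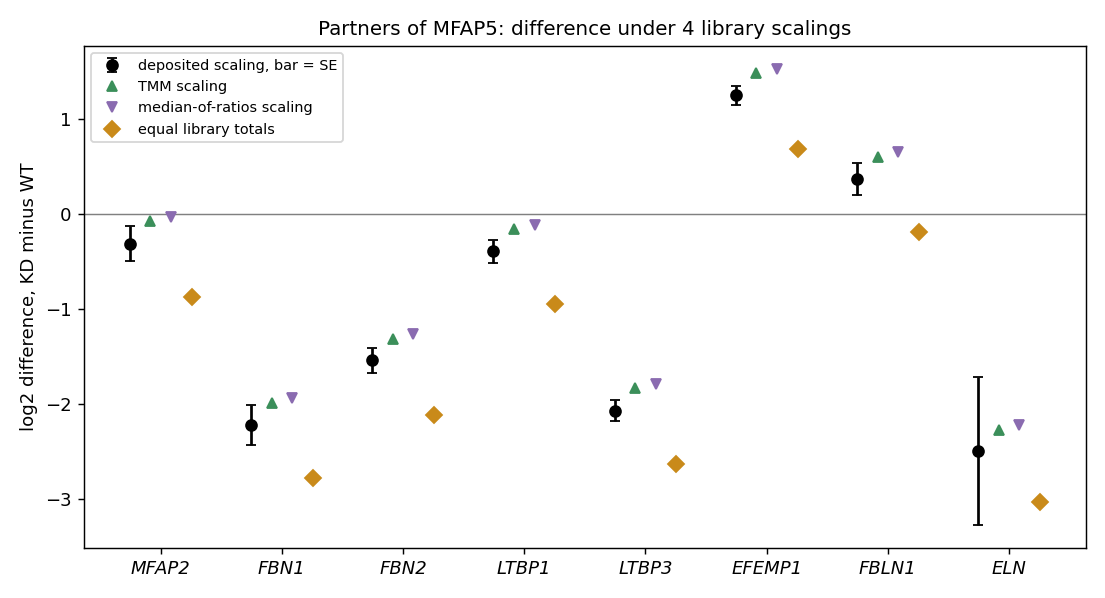
Log2 difference, KD minus WT, of the 8 partners under the deposited scaling and 3 others. FBN1, FBN2, LTBP3 and ELN stay below 0 and EFEMP1 above 0 under all 4 scalings, while FBLN1 runs between -0.19 with equal library totals and 0.65 with median-of-ratios scaling.

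The fibrillins, which form the backbone of the microfibril, were both lower in KD. FBN1, the fibrillin mutated in Marfan syndrome, had 144.1, 145.3 and 177.9 normalized counts in KD 1, 2 and 3, and 725.3 in WT. The KD libraries lay close together and far below WT. The log2 difference was -2.22 (SE 0.21, limma adjusted p = 2.09e-04), and WT over KD was 4.71 (exact 95% interval 4.19 to 5.3, counting error only). FBN2, the fibrillin best known from development and mutated in congenital contractural arachnodactyly, had 7474, 8436 and 8773 in KD and 23924 in WT. Its log2 difference was -1.54 (SE 0.13, limma adjusted p = 1.28e-04) and WT over KD was 2.91 (2.86 to 2.96). FBN2 thus remained a well-read transcript in KD, at 8228 ± 673.7 (SD, n = 3). It made up 94.7%, 94.9% and 95.6% of the fibrillin level per kilobase in KD 1, 2 and 3 and 93.9% in WT, beside FBN1 and FBN3. FBN1 made up 1.5%, 1.34% and 1.59% in KD and 2.34% in WT. FBN2 shares 56 exonic bases with SLC27A6 on the other strand, which had 52, 24 and 28 reads in KD and 8 in WT. Both fibrillins were called lower under all 13 alternatives run.

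The latent TGF-beta binding proteins differed in size of change. LTBP3, which holds latent TGF-beta and is mutated in a form of short stature with missing teeth, had 1481, 1698 and 1645 normalized counts in KD 1, 2 and 3, and 6727 in WT. The KD values spread over a narrow range well below WT. The log2 difference was -2.07 (SE 0.11, limma adjusted p = 6.57e-05), and WT over KD was 4.17 (4.02 to 4.33). LTBP1, the binding protein first found with latent TGF-beta, had 9851, 11041 and 11258 in KD and 14005 in WT. Its log2 difference was -0.39 (SE 0.12, limma adjusted p = 0.0267). All KD libraries were below WT, yet the call did not hold under 5 of 13 alternatives (limma adjusted p 0.0584 to 0.403 there, and from 1.25e-03 with DESeq2 to 0.403 over all 13). The adjusted p was 0.0973 without KD 1 and 0.0584 without KD 2. With TMM scaling the difference was -0.16 and with median-of-ratios scaling -0.11. Antisense gene AC019127.1 shares 249 exonic bases with LTBP1, and had 26, 37 and 30 reads in KD against 117 in WT. Among the 4 LTBP genes, LTBP1 made up 85.2%, 85.3% and 85.1% of the level per kilobase in KD 1, 2 and 3 and 65.7% in WT. LTBP3 made up 9.12%, 9.33% and 8.85% in KD and 22.4% in WT.

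**Figure D3:**
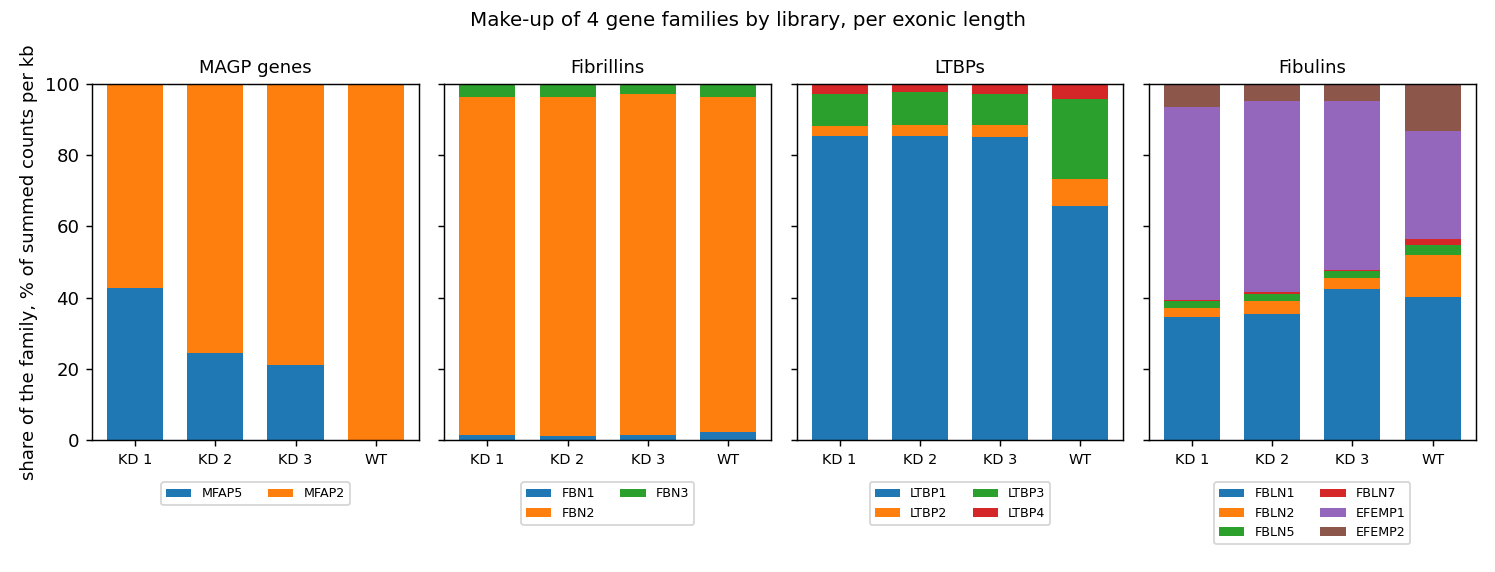
Share of each family's level per kilobase of exon held by each gene, in KD 1, 2 and 3 and in WT, for the MAGPs, fibrillins, LTBPs and fibulins. MFAP5 takes 21.2% to 42.7% of the MAGPs in KD and none in WT, LTBP1 takes 85.1% to 85.3% of the LTBPs in KD and 65.7% in WT, and FBN2 is above 90% of the fibrillins throughout.

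The fibulins of the set were the only partners with KD values above WT. Fibulin genes outside the set did not rise. FBLN2 (log2 difference -1.39), FBLN7 (-1.71) and EFEMP2 (-0.83) were called lower, and FBLN5 (-0.16) was not called. EFEMP1 encodes fibulin-3, a matrix glycoprotein mutated in a dominant macular dystrophy. It had 1963, 1970 and 1834 normalized counts in KD 1, 2 and 3, and 806.4 in WT. The KD libraries differed little from one another and were all well above WT. The log2 difference was 1.25 (SE 0.10, limma adjusted p = 1.31e-04), and KD over WT was 2.39 (2.22 to 2.59). EFEMP1 was called higher under all 13 alternatives, with a difference of 0.69 to 1.53. FBLN1 encodes fibulin-1, a calcium-binding glycoprotein that binds fibronectin and sits in the elastin core. It had 2305, 2389 and 3027 in KD and 1974 in WT. KD 3 was the high library, and KD 1 and KD 2 were nearer to WT. The log2 difference was 0.37 (SE 0.17, limma adjusted p = 0.0844), and FBLN1 was not called. It was called under 5 of 13 alternatives (adjusted p 9.08e-03 to 0.284 over all), and with equal library totals its difference was -0.19. Of the 6 fibulin genes compared, EFEMP1 made up 54.2%, 53.6% and 47.2% of the level per kilobase in KD and 30.2% in WT. FBLN1 made up 34.6%, 35.3% and 42.3% in KD and 40.2% in WT.

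ELN encodes tropoelastin, the monomer of the elastic core. Reads of ELN numbered 8 in KD 1, 22 in KD 2 and 4 in KD 3, against 47 in WT. The normalized counts were 7.58, 17.1 and 4.45 in the KD libraries, against 52.2 in WT. All KD libraries were below WT, with KD 2 the highest of them. WT over KD was 4.98 (3.13 to 7.98, counting error only), and the log2 difference was -2.49 (SE 0.78). ELN reached the filter through WT alone, the library where it is high, so its limma adjusted p of 0.0281 is given as a description. That p was 0.076 without KD 1 and 0.0552 without KD 3, and ran between 2.24e-03 (edgeR) and 0.144 (limma with no filter) over 12 alternatives. ELN was thus transcribed at a trace level in each library, and the antisense gene ELN-AS1 had 0, 2 and 0 reads in KD and 0 in WT.

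Set side by side per kilobase of exon, the order of the members differed between the groups. In KD the levels were LTBP1 1462 ± 103.4, FBN2 623.5 ± 51.1, EFEMP1 485.2 ± 19.3, FBLN1 353.3 ± 54.2 and MFAP2 259.2 ± 39.8 normalized counts per kilobase (SD, n = 3). Below them came LTBP3 156.2 (range 143.9 to 164.9), MFAP5 112.8 ± 60.0, FBN1 9.7 ± 1.19 and ELN 1.48 ± 1.01. LTBP3 and MFAP5 were the only neighbours in this order whose KD ranges overlapped. In WT the order was LTBP1 at 1911, FBN2 at 1813, LTBP3 at 653.3, MFAP2 at 318.2, FBLN1 at 270.9, EFEMP1 at 203.5, FBN1 at 45.2, ELN at 7.98 and MFAP5 at 0. LTBP1 and FBN2 led in both groups. EFEMP1 held rank 3 in KD and rank 6 in WT.

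Differences also went with gene length over the whole table. Among protein-coding genes with exons of up to 2 kilobases the median log2 difference was 0.86, and 54.5% were called higher. Above 12 kilobases the median was -0.34, and 49.3% were called lower. FBN1 and FBN2, at 16.1 and 13.2 kilobases, are among these longest genes, where 8.14% and 15.4% of genes had a difference at or below theirs. In their own length classes, 6.41% of genes lay at or below LTBP3, 4.11% at or below ELN, 28.2% at or below LTBP1 and 27.5% at or below MFAP2. EFEMP1 and FBLN1 had 72.7% and 54.1% of their class at or below them. The part of length in these differences was not tested.

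**Figure D4:**
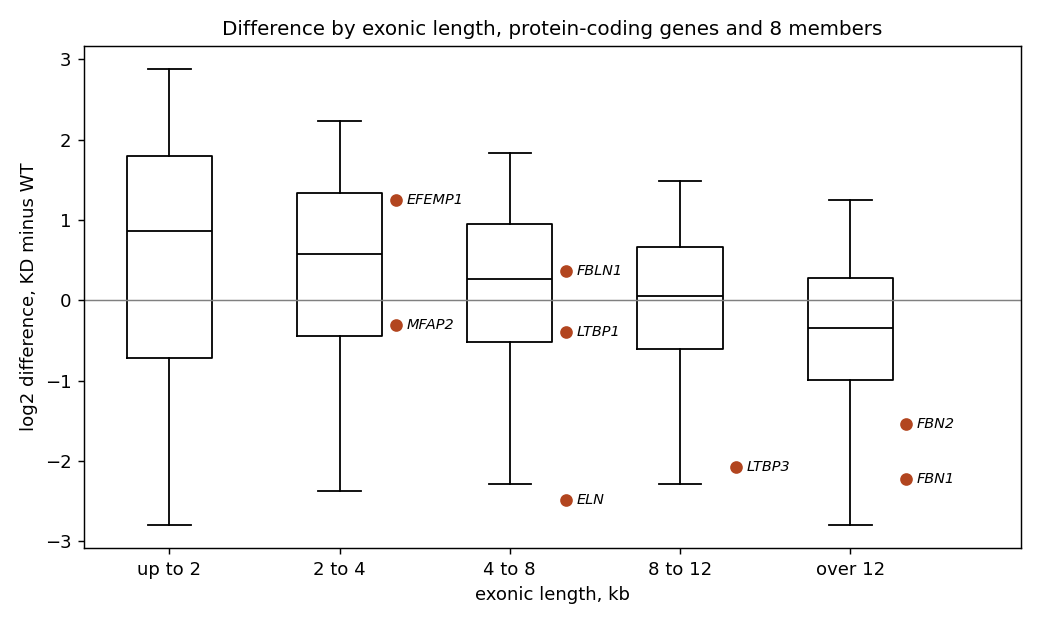
Log2 difference, KD minus WT, of the partners against exonic length in kilobases, with the median and quantiles of protein-coding genes in 5 length classes. The class median runs from 0.86 up to 2 kilobases to -0.34 above 12 kilobases, and FBN1, FBN2, LTBP3 and ELN lie below the median of their class.

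Cells that make these fibres in tissue were looked for by their markers. The sum of 10 fibroblast markers was 555.4 to 653.7 in the KD libraries and 1226 in WT, with COL3A1 and DPT at 0 in every KD library and DCN at 0 in WT. Of 7 fibroblast markers tested, 2 were lower in KD and none was higher. The sum of 8 smooth muscle markers was 2147 to 2334 in KD and 8264 in WT, and of 6 tested 2 were lower and 1 was higher. Endothelial markers summed to 934.8 to 1156 in KD and 1323 in WT. The sum of 6 mesothelial markers was 1167 to 1263 in KD and 478.7 in WT, and of 3 tested 1 was higher and 1 was lower. The summed fibroblast and smooth muscle levels were lower in KD, as were the endothelial, erythroid, leukocyte, neural and ovarian epithelial sums. The summed mesothelial level was higher. Single smooth muscle, mesothelial and ovarian epithelial markers went both ways. Of the 10 ovarian epithelial markers 6 were higher and 3 lower, and MUC16 alone had 458890 of their WT sum of 558409. Beside these calls, 36.3% of all genes tested were lower and 31.4% higher. The part of these cell types in the results was not tested. In bulk RNA, fewer cells of a type and less RNA per cell cannot be told apart.

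The rest of the fibre and of the TGF-beta pathway is given from lists of known function. The 6 lists held 89 genes, of which 79 passed the filter, 28 were called higher, 31 were called lower and 20 were not called. These shares of 35.4% higher and 39.2% lower are near the 31.4% and 36.3% over all genes tested. Among protein-coding genes 45.9% were higher and 24.7% lower, so beside these the lists held fewer higher and more lower calls. EMILIN1 and MMP9 reached the filter through WT alone and BMP5 through KD alone, and without these 3 genes 27 of 76 were higher and 29 lower. The other structural components leaned as the fibrillins did. Of 16 tested, 11 were lower and 1 was higher, with a median log2 difference of -1.44, which stayed between -1.17 and -2.01 under the other scalings and was -1.39 without EMILIN1. HMCN1, an extracellular hemicentin, had 314.6 ± 26.6 normalized counts in KD and 2061 in WT (log2 difference -2.71). EMILIN1, an elastin-associated glycoprotein, had 9.66 ± 1.33 in KD and 123.3 in WT (-3.55). LTBP2, which binds fibrillin and does not hold TGF-beta, had 479.8 ± 60.2 in KD and 1983 in WT (-2.05). VCAN, the proteoglycan versican, was the one called higher, with 36528 ± 3101 in KD and 25643 in WT (0.51), and was at -0.06 with equal library totals. Its limma adjusted p was 0.0217, and was 0.0652 without KD 1 and 0.059 without KD 3 (from 1.34e-05 with DESeq2 to 0.742 with limma and equal totals, over 13 alternatives).

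Genes for cross-linking and processing were mixed. Of 15 tested, 8 (53.3%) were lower and 4 (26.7%) were higher. Among protein-coding genes 24.7% were lower and 45.9% higher, and over all genes tested 36.3% and 31.4%. The median of the list was -0.75, and was -1.31 with equal totals, where 10 were lower and 2 higher. LOX, the lysyl oxidase that starts elastin and collagen cross-links, had 2184 ± 88.0 in KD and 1082 in WT (1.01). POGLUT3, which puts glucose on the EGF repeats of fibrillins and LTBPs, had 1910 ± 131.9 in KD and 667.5 in WT (1.51). ADAMTSL3 had 1371 ± 7.02 in KD and 1007 in WT (0.44, and -0.12 with equal totals). LOXL2 and LOXL4, further lysyl oxidases, were lower, at 93.8 ± 18.5 in KD against 566.5 in WT (-2.60) and at 65.3 ± 23.5 in KD against 233.2 in WT (-1.88). ADAMTSL4, which binds fibrillin-1, had 34.1 ± 5.17 in KD and 158.8 in WT (-2.20). Lysyl oxidase genes were thus called in both directions.

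The list of growth factors that microfibrils hold and their receptors also included LRRC32, NRROS and THBS1, which are neither. Of its 14 genes tested, 6 (42.9%) were higher, THBS1 (0.83) among them, and 6 (42.9%) were lower. Among protein-coding genes 45.9% were higher and 24.7% lower. The median was -0.26, and was 0.02 with median-of-ratios scaling. With equal totals it was -0.82, with 5 higher and 8 lower. Without BMP5, which reached the filter through KD alone, 5 of 13 were higher and 6 lower, with a median of -0.49. BMP4 had 4648 ± 273.6 in KD and 927.4 in WT (2.32), BMP5 had 39.5 ± 6.07 in KD and 5.55 in WT (2.62), and the receptor TGFBR2 had 31467 ± 2138 in KD and 10232 in WT (1.62). The ligand TGFB2 had 2790 ± 166.4 in KD and 6873 in WT (-1.30), and INHBA, an activin subunit, had 49.9 ± 7.59 in KD and 315.4 in WT (-2.65). LRRC32, which presents latent TGF-beta on the cell surface, had 41.3 ± 3.33 in KD and 192.2 in WT (-2.20). BMP genes were called in both directions, since BMP7 was lower, as was the related factor GDF11. Both are named after their values were seen. BMP7 had 6080 ± 690.4 in KD and 8502 in WT (-0.49), and GDF11 had 4194 ± 308.0 in KD and 6863 in WT (-0.71).

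Known response genes of the TGF-beta family were called in both directions. Of 14 tested, 6 (42.9%) were higher and 2 (14.3%) were lower, beside 45.9% higher and 24.7% lower among protein-coding genes. The median was 0.16, and was -0.40 with equal totals, where 5 were higher and 8 lower. The 6 higher genes were ID1, ID2 and ID3, textbook targets of BMP signalling, and the signalling regulators SMAD7 (0.50, and -0.06 with equal totals), SKIL (0.79) and TGIF1 (0.90). The last 3 are named after their values were seen. ID1 had 5462 ± 453.6 in KD and 1437 in WT (1.92), ID2 had 2907 ± 658.0 in KD and 963 in WT (1.57), and ID3 had 3275 ± 332.4 in KD and 877.4 in WT (1.89). TGFBI, a matrix protein induced by TGF-beta, had 33.8 ± 11.9 in KD and 457.6 in WT (-3.78). PMEPA1, an inhibitor of TGF-beta signalling that TGF-beta induces, had 316.4 ± 85.9 in KD and 1392 in WT (-2.17).

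The list of receptors for MAGP-2 and fibrillin, which also holds the Notch ligand JAG1 (0.75, called higher), had 11 genes tested. Of these, 7 (63.6%) were higher and 1 was lower, beside 45.9% higher and 24.7% lower among protein-coding genes. The median of the list was 0.48, and was -0.08 with equal totals, where 2 were higher and 4 lower. The chains of integrin alpha-v beta-3, which binds MAGP-2 and fibrillin, were both higher. ITGAV had 16476 ± 1055 in KD and 7524 in WT (1.13), and ITGB3 had 3030 ± 941.9 in KD, with KD 3 at 4118, and 1283 in WT (1.20). The ITGB3 call did not hold with equal totals (0.63, limma adjusted p = 0.0951) or with no filter (limma adjusted p = 0.138); over 13 alternatives the adjusted p was 1.19e-07 to 0.138. ITGB1 had 12386 ± 952.8 in KD and 6886 in WT (0.84). ITGA5, the alpha chain of the fibronectin receptor, had 130.8 ± 3.38 in KD and 622 in WT (-2.24). The list of elastases, which also holds the inhibitor TIMP3 (0.30, not called), had 9 genes tested. Of these, 4 (44.4%) were higher and 3 (33.3%) lower, beside the same 45.9% and 24.7% of protein-coding genes. The median of the list was 0.30, and was -0.27 with equal totals. MMP7, or matrilysin, had 431.0 ± 130.2 in KD and 72.2 in WT (2.52), CTSV had 1051 ± 93.1 in KD and 419.8 in WT (1.32), and CTSL had 803.7 ± 85.2 in KD and 430.9 in WT (0.89). MMP2, a gelatinase that cuts elastin, had 77.4 ± 37.1 in KD and 1608 in WT (-4.46), CTSK had 50.7 ± 17.6 in KD and 286.6 in WT (-2.53), and MMP9 had 9.27 ± 2.5 in KD and 43.3 in WT (-2.14). The MMP9 call did not hold with no filter (limma adjusted p = 0.0518) or with DESeq2 (adjusted p = 0.0595).

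**Figure D5:**
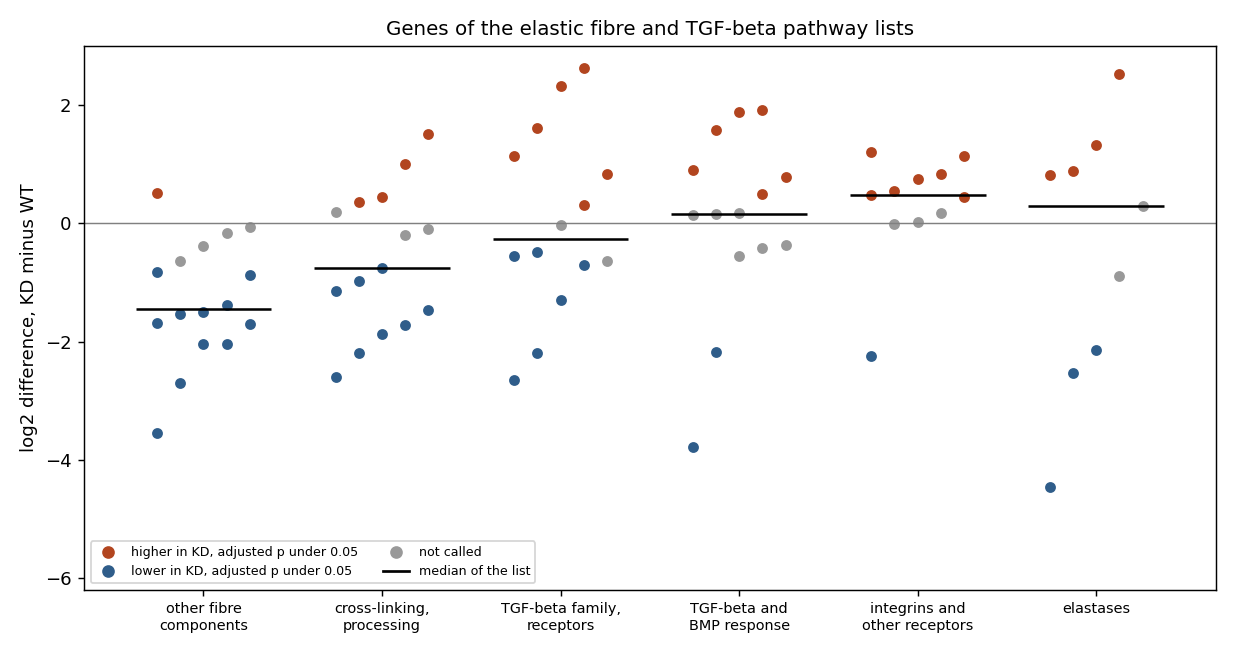
Log2 difference, KD minus WT, of each tested gene of the 6 pathway lists, coloured by its call, with the median of each list as a bar. The other fibre components sit mostly below 0 with a median of -1.44, and the genes of the receptor list, JAG1 included, mostly above 0 with a median of 0.48.

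The genes whose pattern over the 4 libraries was most like that of MFAP5 were EDN2, TFAP2B, PRR32, GTSF1 and GABRG1, by the Euclidean distance of their centred log2 profiles (1.35, 1.44, 2.31, 2.41 and 2.60). All 5 had no WT read. This follows largely from the choice of MFAP5, since the gap between KD and 0 in WT dominates the distance. EDN2, which encodes endothelin-2, had 211.4, 219.9 and 270.1 normalized counts in KD 1, 2 and 3. TFAP2B, which encodes an AP-2 transcription factor, had 173.4, 157.7 and 179.0 in KD. Neither showed the excess in KD 1 that MFAP5 had. With a pseudocount of 5 in place of 1, 2 of these 5 genes remained among the closest. Around MFAP5 on chromosome 12, 15 protein-coding genes lay within 500 kilobases, and 5 of them passed the filter. M6PR was called higher, at 8162 ± 719.4 in KD and 3483 in WT. RIMKLB, the nearest at 18.7 kilobases, was called lower, at 1469 ± 116.3 in KD and 1885 in WT. PHC1 was also called lower and KLRG1 was not called. A2M, at 5.42 ± 5.23 in KD and 115.5 in WT, reached the filter through WT alone, so its lower call is a description. Of all genes tested, 36.3% were lower and 31.4% higher.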

How the data were processed

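Each of the 4 libraries (3 KD, 1 WT) had 1 deposited table of normalized counts per gene, a signal in which the authors divided whole read counts by a factor per library. Tools named in the submitters' processing notes are DESeq2, featureCounts 2.0.6 and STAR 2.7.11b, with build hg38. The strand setting and annotation were not given in the sources used here. Whole reads were recovered for 100% of values within 0.001 reads. Genes with a mean of at least 10 were tested with limma 3.58.1 (R 4.3.3, trend) on log2(value + 1), Benjamini-Hochberg adjusted over 23344 genes, two-sided, at 0.05. Fold changes on this scale understate low genes. edgeR 4.0.16 on the recovered reads called 7402 genes higher and 9271 lower; DESeq2 1.42.0 was another alternative. The limma steps were tested on simulated data. Lengths are merged exons of GENCODE 29, which held 92.9% of the identifiers. Intervals cover counting error only. The members and lists were chosen with earlier results of these data known. Named genes were the members, up to 3 called genes a direction in each list, the 5 patterns closest to MFAP5 and its neighbours.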

Additional observations from a re-analysis of the deposited data

How the results depend on the processing

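Counts over all genes moved most with scaling and filters. With equal library totals 4701 genes were higher and 12735 lower. Lower calls numbered 5086 with a mean of at least 50 and 3710 among protein-coding genes alone. Of the 8 partners, 2 were higher with that filter, TMM or median-of-ratios scaling, edgeR or DESeq2, and 3 were lower with no filter. Leaving out 1 KD library gave 3 to 5 lower partners, with 3 without KD 1. Other pathway genes higher numbered 16 with equal totals. With equal totals the sign turned for FBLN1 (-0.19), VCAN (-0.06) and ADAMTSL3 (-0.12). This scaling moves the KD to WT ratio by -0.56 on the log2 scale, more than the size of each of these 3 differences. The causes of the other changes were not tested. Over single-gene values other than MFAP5 and all alternatives, 474 kept direction and call, 19 lost the call, 7 gained it and 3 turned sign. Apart from the 8 partners, these genes were picked for their calls in the main fit, so kept calls were favoured in advance. The MFAP5 difference has no call and moved beyond its spread under 4. Depth limits ELN, with 34 KD reads. No paired analysis was possible because WT has 1 library, so the groups share fewer than 2 replicate numbers.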
